A study of Mus musculus with 12 samples.

Results

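The HOX cluster genes are the subject here: 36 of the 22180 genes tested. Membership was decided by gene name. The set, and the gene lists set beside it, were chosen with earlier results of these data known, so their counts are descriptions. A member is a gene of HOX cluster A, B, C or D with at least 1 probe set annotated to it alone. Where a gene had several such probe sets, which among the members was so only for Hoxb5, the one with the highest mean over the 12 arrays was used. HOX genes without such a probe set were not analysed here. Cluster A, on chromosome 6, gave 9 members, cluster B on chromosome 11 gave 10, cluster C on chromosome 15 gave 9, and cluster D on chromosome 2 gave 8.

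The study profiled RNA of C57BL/6 mice on Affymetrix arrays and compared isolated adipose progenitors (AP) with the adipose tissue (AT) they reside in. Material was taken fresh from an inguinal depot, called SAT for subcutaneous adipose tissue, and from a perigonadal depot, called VAT for visceral. This gives 4 groups, AP from SAT, AP from VAT, AT from SAT and AT from VAT, each with 3 arrays labelled as biological replicates. The AP are what remained of the stromal-vascular fraction, the non-adipocyte cells freed by enzymatic digestion, once magnetic beads had taken out CD31-positive endothelium and blood cells bearing lineage markers, so they are a depleted mixture and not a cell type sorted on its own markers. AT was not fractionated, no group carried a treatment or altered allele in the labels, and the age and sex of the mice are not given there. The AP came from several mice and the labels do not tie a replicate to an animal, so the p-values measure only the spread between these samples.

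HOX genes encode homeodomain transcription factors that tell cells where along the head-to-tail axis of the body they lie. Within a cluster the genes stand in the order in which they are used along that axis: low paralogue numbers mark anterior levels and high numbers posterior levels, and genes of the same number in different clusters are paralogues of each other. Connective tissue cells of the adult, preadipocytes among them, keep much of the HOX pattern of the place they came from, which is why HOX transcripts are used as position marks of fat depots. HOX proteins bind DNA together with TALE cofactors of the PBX, MEIS and PKNOX families. Polycomb complexes keep unused parts of the clusters silent, and trithorax-type complexes and retinoic acid receptors help to switch them on.

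Promoter windows were available from RefSeq (build GRCm38.p6) for 20 of the 36 members, each running from 250 bases before to 50 bases after the start of transcription. The 3 printed here, 5′ to 3′ on the gene's own strand, belong to genes that turn up repeatedly below. Hoxa5 and Hoxa9 lie at chr6:52204538-52204837 and chr6:52227321-52227620 on the minus strand and differed between depots in opposite directions. Hoxc4, at chr15:103034145-103034444 on the plus strand, is the gene of cluster C with a depot difference for which a window was given. Capitals mark CG dinucleotides, the usual sites of DNA methylation.
Hoxa5 promoter: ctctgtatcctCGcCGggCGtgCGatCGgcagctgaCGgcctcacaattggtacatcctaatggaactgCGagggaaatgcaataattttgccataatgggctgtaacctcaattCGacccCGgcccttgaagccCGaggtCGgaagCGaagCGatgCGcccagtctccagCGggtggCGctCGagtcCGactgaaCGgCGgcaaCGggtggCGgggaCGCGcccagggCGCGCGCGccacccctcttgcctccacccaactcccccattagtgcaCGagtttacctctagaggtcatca
Hoxa9 promoter: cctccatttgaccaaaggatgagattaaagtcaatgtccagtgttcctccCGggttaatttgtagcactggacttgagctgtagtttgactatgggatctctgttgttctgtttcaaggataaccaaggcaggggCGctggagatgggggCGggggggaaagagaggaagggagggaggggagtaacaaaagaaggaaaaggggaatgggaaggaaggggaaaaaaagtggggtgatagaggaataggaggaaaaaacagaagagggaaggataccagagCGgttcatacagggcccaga
Hoxc4 promoter: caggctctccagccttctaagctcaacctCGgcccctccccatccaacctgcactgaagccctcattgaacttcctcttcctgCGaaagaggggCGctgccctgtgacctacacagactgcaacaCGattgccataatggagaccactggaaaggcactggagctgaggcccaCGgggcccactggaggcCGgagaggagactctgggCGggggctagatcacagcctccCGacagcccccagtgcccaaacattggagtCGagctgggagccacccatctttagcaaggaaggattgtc

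The Hoxa5 window held 29 CG dinucleotides, the Hoxa9 window 4 and the Hoxc4 window 9, with GC contents of 61.7%, 49.7% and 60.3%. Over all 32851 promoter windows of the same length the median was 7, and over the 22 windows of the 20 matched members it was 17. The 7 matched members with a called depot difference had a median of 9 CG dinucleotides and a range from 4 to 29. The 15 windows of the 13 other matched members had a median of 20 and a range from 4 to 45, which overlaps. Hoxc8, Hoxc9 and Hoxc10, also called between depots, had no window. Methylation was not measured on these arrays. Here 3 letter patterns were searched on both strands and counted separately: TGATNNAT, bound by HOX-PBX pairs, TTTATNG, bound by CDX proteins, and TAATTA, the homeodomain core. TGATNNAT stood in 8.85% of all windows and in 4 of 24 windows of HOX genes (Hoxa2, Hoxb1, Hoxb8 and Hoxd11). TTTATNG stood in 10.9% of all windows and in 2 of the 24 (Hoxb8 and Hoxd4). TAATTA stood in 5.29% of all windows and in 2 of the 24, both of Hoxd11. None of these letter patterns occurs in the 3 windows printed above.

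The clusters also hold genes of small RNA, which silence messages through the seed, bases 2 to 8, shown in capitals. miR-196 is known for targeting HOX messages, Hoxc8 among them, and miR-10 lies beside the HOX genes of paralogue group 4. Mature sequences from RefSeq are printed because 4 of the small RNA genes that encode them were measured on the arrays. They are grouped by shared seed. The 196a-5p sequence is made from chr11:96265187-96265208 (Mir196a-1) and from chr15:102973365-102973386 (Mir196a-2), both on the plus strand.
mmu-miR-196a-5p: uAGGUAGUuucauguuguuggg
mmu-miR-196b-5p: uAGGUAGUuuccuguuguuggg
mmu-miR-10a-5p: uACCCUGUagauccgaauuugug
mmu-miR-10b-5p: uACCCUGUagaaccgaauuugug
mmu-miR-615-3p: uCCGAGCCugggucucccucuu

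All levels below are log2 RMA intensities as deposited, so a difference of 1 is 2-fold, and the level of one gene is not compared with that of another because probe sets differ in brightness. Arrays of one group correlated at 0.9869 to 0.9936 over all genes, array medians lay between 4.49 and 4.67, and precision is bounded by having 3 arrays a group. Single-array values of the members ran from 3.11 to 10.72. The median SD of a member within a group was 0.144, and the highest was 0.577, for Hoxc10 in AT from VAT. A value of 4.10, the 40th percentile of the probe-set means, was taken as the background level. All 4 group means were at or above it for 29 members, Hoxa2, Hoxa3, Hoxc5, Hoxc11 and Hoxd12 fell under it in 1 to 3 groups, and Hoxd9 and Hoxd11 were under it in all 4. Differences were fitted over all genes with limma, and a gene is called where the Benjamini-Hochberg adjusted p, 2-sided and taken over all 22180 genes, is under 0.05. Of the 36 members, 13 were called in at least 1 of the 4 comparisons of groups and 23 in none.

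**Figure D1:**
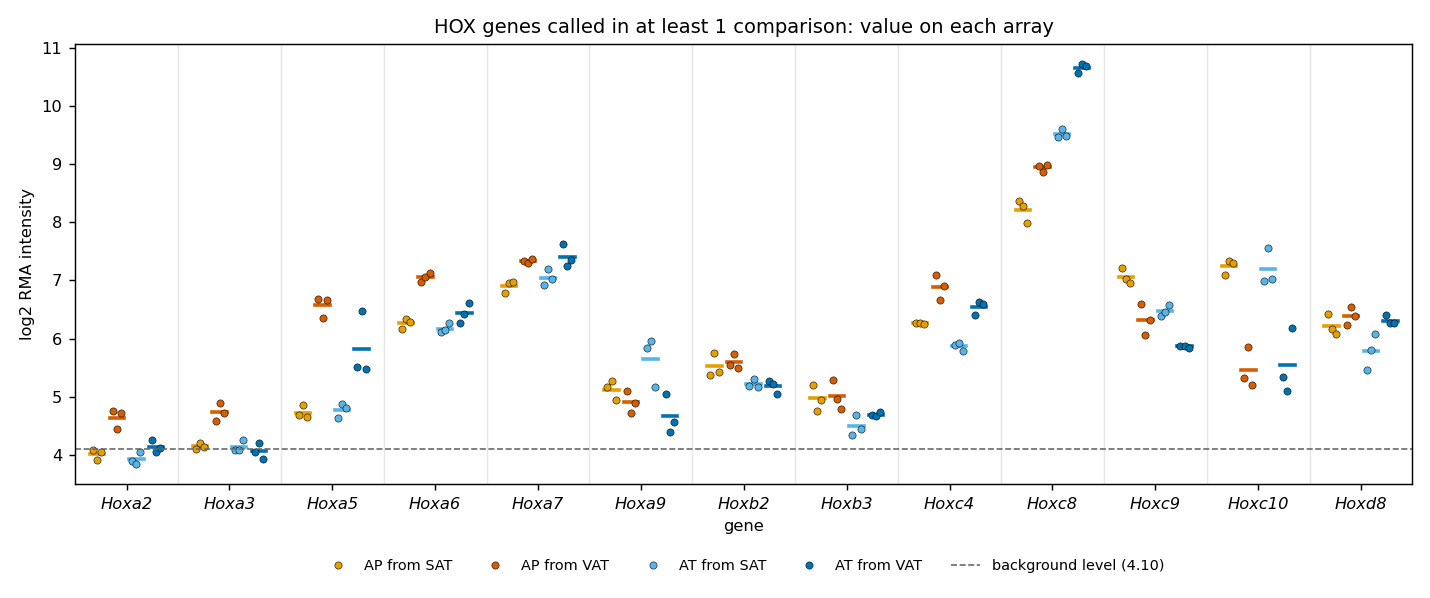
Log2 RMA intensity (vertical axis) of the 13 HOX genes called in at least 1 comparison, with a point for each array, a bar for the mean of the 3 arrays of a group and a dashed line at the background level of 4.10. Hoxa5 stands higher in VAT and Hoxc10 higher in SAT in both preparations, Hoxc8 is lower in AP than in AT, and Hoxa2 and Hoxa3 are highest in AP from VAT and near the dashed line elsewhere.

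The first comparison asks how the HOX pattern of progenitors differs between the depots. In AP, 9 of 36 members (25%) were called between VAT and SAT, where 5.64% of all genes were called. Hoxa2, Hoxa3, Hoxa5, Hoxa6, Hoxa7, Hoxc4 and Hoxc8 were higher in VAT (7 members, beside 3.03% of all genes), and Hoxc9 and Hoxc10 were lower (2 members, beside 2.6%). The values of the groups did not overlap for 12 members, 10 higher and 2 lower in VAT, and did not overlap for 20.4% of all genes. The median difference over the 36 members was 0.05, against 0 over all genes. In AT, 6 of 36 members (16.7%) were called, where 4.55% of all genes were called: Hoxa5, Hoxc4 and Hoxc8 were higher in VAT, beside 2.8% of all genes, and Hoxa9, Hoxc9 and Hoxc10 were lower, beside 1.75%. There 11 members did not overlap between the groups, 7 higher and 4 lower, beside 18.1% of all genes, and the median difference over the members was -0.005.

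In cluster A the called genes of AP were the anterior and middle ones, 5 of 9 members, all higher in VAT. Hoxa5 is a gene of the neck and upper trunk with known roles in lung development and in adipocyte maturation. In AP it read 4.68, 4.85 and 4.65 on the SAT arrays and 6.68, 6.36 and 6.67 on the VAT arrays. Every VAT array lay above every SAT array by more than 1 log2 unit. The means were 4.73 ± 0.11 in SAT and 6.57 ± 0.18 in VAT (SD, n = 3 each here and below), a difference of 1.84 with a standard error (SE) of 0.204, or 3.59-fold (limma adjusted p = 3.02e-05). In AT, Hoxa5 read 4.63, 4.87 and 4.81 in SAT and 5.51, 6.48 and 5.48 in VAT. The VAT arrays were again all higher, with replicate 2 about 1 unit above the other two. The difference in AT was 1.05 (SE 0.204, adjusted p = 0.00617), and with only these 2 groups in the fit the adjusted p was 0.0513.

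Hoxa6, the next gene along the cluster and a gene of the thorax, behaved similarly in AP, with 6.17, 6.33 and 6.28 in SAT and 6.97, 7.06 and 7.13 in VAT. The difference was 0.79 (SE 0.108, adjusted p = 0.000206), again with no overlap. In AT it read 6.11, 6.14 and 6.26 in SAT and 6.27, 6.42 and 6.61 in VAT, a fitted difference of 0.26 that was not called. Hoxa7, also a thoracic gene, read 6.78, 6.95 and 6.98 in SAT and 7.33, 7.30 and 7.37 in VAT in AP. Its groups did not overlap and the difference was 0.43 (SE 0.117, adjusted p = 0.0426), but this call was lost without any 1 of the 6 AP arrays, with adjusted p from 0.0746 to 0.192, and without replicate 3 of AT from VAT (0.0509). In AT the fitted difference of Hoxa7 was 0.36 (adjusted p = 0.115).

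Hoxa2, which patterns the hindbrain and the second pharyngeal arch, and Hoxa3, needed for the thymus and parathyroid glands, stood near the background level everywhere except in AP from VAT. Hoxa2 read 4.09, 3.92 and 4.05 in AP from SAT and 4.75, 4.45 and 4.72 in AP from VAT. The fitted difference was 0.62 (SE 0.112, adjusted p = 0.00257), taken against a SAT mean of 4.02 that is under background. Hoxa3 read 4.10, 4.20 and 4.14 in AP from SAT and 4.59, 4.89 and 4.72 in AP from VAT, a difference of 0.59 (SE 0.109, adjusted p = 0.00324). Neither gene was called between depots in AT, where Hoxa2 read 3.84 to 4.05 in SAT and 4.05 to 4.26 in VAT, and Hoxa3 read 4.08 to 4.25 in SAT and 3.93 to 4.20 in VAT. Hoxa4, which lies between Hoxa3 and Hoxa5, was not called in either preparation, with fitted differences of 0.14 in AP and 0.11 in AT.

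Hoxa9, a gene of the lower trunk and of blood progenitors, went the other way. In AT it read 5.84, 5.96 and 5.17 in SAT and 5.04, 4.39 and 4.56 in VAT. All 3 VAT arrays lay below all 3 SAT arrays, although replicate 3 of SAT and replicate 1 of VAT were close to each other. The difference was -0.99 (SE 0.198, adjusted p = 0.00769, and 0.0515 with only these 2 groups in the fit). In AP the values were 5.16, 5.27 and 4.94 in SAT and 5.09, 4.72 and 4.90 in VAT, which overlap, and the fitted difference of -0.22 was not called. Hoxa10 and Hoxa13 were not called between depots, with fitted differences between -0.11 and 0.06. Hoxa7 and Hoxa9 are neighbours in the RefSeq order, and the sign of the fitted depot difference changed between them in both preparations.

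Cluster C held 4 called members of 9 in AP and the same number in AT, and they were the same 4 genes with the same signs. Hoxc4 and Hoxc8 were higher in VAT, and Hoxc9 and Hoxc10, their posterior neighbours, were lower. Hoxc4, a gene of the neck and upper thorax, read 6.27, 6.26 and 6.25 in AP from SAT and 7.09, 6.66 and 6.91 in AP from VAT. The AT arrays gave 5.89, 5.93 and 5.79 in SAT and 6.41, 6.62 and 6.59 in VAT. Its groups did not overlap in either preparation. The differences were 0.63 in AP (SE 0.114, adjusted p = 0.00276) and 0.67 in AT (SE 0.114, adjusted p = 0.00236).

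Hoxc8, a thoracic gene known to restrain brown adipocyte genes, read 8.37, 8.28 and 7.98 in AP from SAT and 8.97, 8.87 and 8.99 in AP from VAT. Whole tissue gave 9.47, 9.61 and 9.49 in SAT and 10.56, 10.72 and 10.69 in VAT. The 4 groups stood apart from each other without overlap, in the order AP from SAT, AP from VAT, AT from SAT, AT from VAT. VAT exceeded SAT by 0.73 in AP (SE 0.112, adjusted p = 0.000586) and by 1.13 in AT (SE 0.112, adjusted p = 1.67e-05).

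Hoxc9, which marks lower thoracic levels, read 7.21, 7.02 and 6.95 in AP from SAT and 6.60, 6.06 and 6.32 in AP from VAT. In AT it read 6.38, 6.46 and 6.58 in SAT and 5.88, 5.88 and 5.84 in VAT. SAT was higher on every array within each preparation. The differences were -0.73 in AP (SE 0.128, adjusted p = 0.00193) and -0.61 in AT (SE 0.128, adjusted p = 0.0111). When the arrays were aligned on the median of 10 housekeeping genes, the AT difference was -0.50 and its adjusted p 0.0839.

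Hoxc10, a gene of lumbar levels and the hindlimb that is known to be enriched in subcutaneous fat, showed the largest fall toward VAT among the members in both preparations. It read 7.09, 7.33 and 7.30 in AP from SAT and 5.33, 5.86 and 5.20 in AP from VAT. In AT it read 6.99, 7.55 and 7.03 in SAT and 5.34, 5.09 and 6.19 in VAT. No VAT array reached a SAT array, and replicate 3 of AT from VAT was the nearest. The difference was -1.78 in AP (SE 0.242, 3.43-fold lower, adjusted p = 0.000208) and -1.65 in AT (SE 0.242, 3.14-fold lower, adjusted p = 0.000685). Both calls held under every alternative run and without any 1 array.

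The genes between and beyond these were not called in this fit. Hoxc6, between Hoxc8 and Hoxc5, had means of 7.04 ± 0.07 and 7.24 ± 0.06 in AP from SAT and VAT, and 6.91 ± 0.14 and 7.29 ± 0.31 in AT. Its fitted differences were 0.20 and 0.38 (adjusted p = 0.577 and 0.154), and the difference in AT was 0.53 without replicate 1 of AT from VAT (adjusted p = 0.037). Hoxc5 was near background, with fitted differences of -0.05 in AP and 0.50 in AT (adjusted p = 0.0783). The latter was called with quantile normalization (0.57, adjusted p = 0.0358), with cyclic loess (0.54, adjusted p = 0.049) and when AT from VAT lacked replicate 1 (adjusted p = 0.049). Hoxc11, Hoxc12 and Hoxc13, the most posterior genes of the cluster, lay between -0.14 and 0.10.

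Clusters B and D gave no called member between depots in either preparation by limma. At an unadjusted p under 0.05, 1 of the 10 members of cluster B and 1 of the 8 of cluster D passed in AP, and the same numbers passed in AT. The 95% intervals of the differences reached from -0.44 to 0.64 in AP and from -0.52 to 0.55 in AT over cluster B, so with 3 arrays a group differences up to those bounds remain possible. Over cluster D they reached from -0.45 to 0.76 in AP and from -0.51 to 0.84 in AT. Hoxb5, the member of cluster B with the brightest probe set, had means of 5.68 ± 0.11 and 6.04 ± 0.15 in AP from SAT and VAT, a fitted difference of 0.36 (adjusted p = 0.177). In AT the Hoxb5 means were 5.69 ± 0.27 and 5.95 ± 0.12, a fitted difference of 0.26. Hoxd8, the member of cluster D with the brightest probe set, read 5.46, 5.81 and 6.08 in AT from SAT and 6.40, 6.26 and 6.26 in AT from VAT. Those groups did not overlap and the fitted difference was 0.52 (adjusted p = 0.0598), and it was called without replicate 3 of AT from SAT (0.67, adjusted p = 0.0138) and with dim genes left out (0.0487). Hoxd9, under background in all groups, had the largest fitted difference of cluster D in AP, 0.44 (adjusted p = 0.122).

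**Figure D2:**
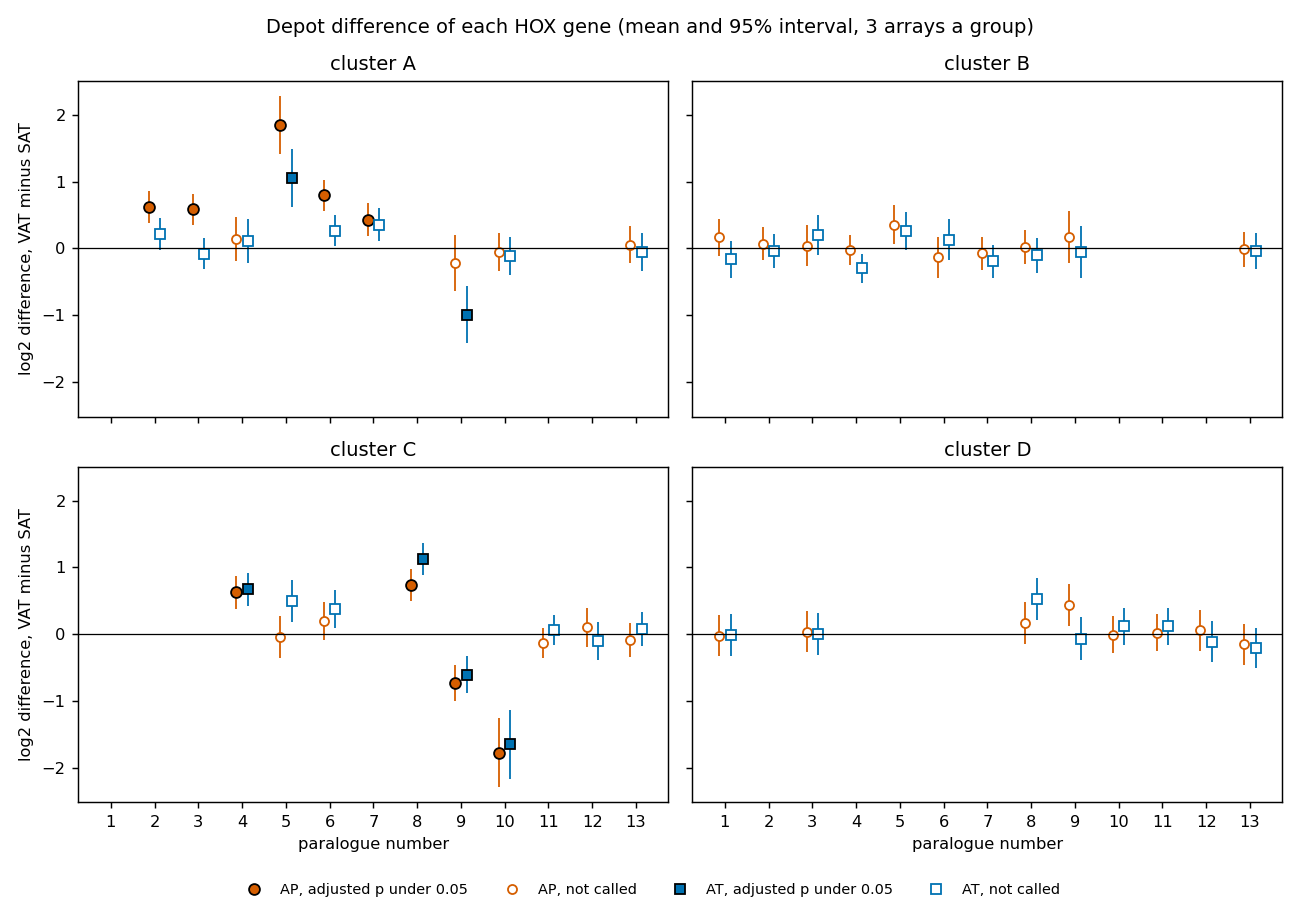
Difference in log2 RMA intensity, VAT minus SAT (vertical axis), of each HOX gene by paralogue number (horizontal axis), in 1 panel per cluster, with the 95% interval from the limma fit, 3 arrays a group; circles are AP, squares AT, and filled symbols have an adjusted p under 0.05. Filled symbols above 0 lie at paralogue numbers 2 to 8 and those below 0 at 9 and 10, all in clusters A and C, from -1.78 for Hoxc10 to 1.84 for Hoxa5 in AP.

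By paralogue number, the called members of groups 1 to 8 were higher in VAT and those of groups 9 to 13 lower. Of the 21 members with numbers 1 to 8, 7 were higher and 0 lower in AP, and 3 were higher and 0 lower in AT. Of the 15 members with numbers 9 to 13, 0 were higher and 2 lower in AP, and 0 were higher and 3 lower in AT. The median differences were 0.16 and 0.20 for the lower numbers and -0.02 and -0.07 for the higher ones, in AP and AT. The boundary between 8 and 9 was placed after these values were seen, and no test was made of it. Fitted values did not all follow it: 16 of the 21 lower-numbered members were above 0 in AP and 14 in AT, and 9 of the 15 higher-numbered members were below 0 in AP and 11 in AT.

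The depot differences of AP and AT come from separate arrays. Of the members called in AP, 5 of 9 (55.6%) were also called in AT, and of those called in AT, 5 of 6 (83.3%) were also called in AP: Hoxa5, Hoxc4, Hoxc8, Hoxc9 and Hoxc10, each with the same sign in both. Across the 36 members the 2 sets of differences had a Pearson r of 0.816 and a Spearman rho of 0.588, given as a description, since genes of one cluster are not independent and the values within a preparation share its arrays. A test of the difference between the 2 preparations, the interaction, called 1 of 36 members (2.78%), where 2.15% of all genes were called, 0.987% with a larger difference in AP and 1.16% with a smaller one. That was Hoxa3, whose VAT minus SAT difference was 0.59 in AP and -0.08 in AT, 0.67 apart (SE 0.155, adjusted p = 0.0368). This call was lost in 13 alternatives, among them quantile normalization (adjusted p = 0.0747) and the removal of any 1 array other than replicate 1 of AP from VAT and replicate 2 of AT from VAT (0.0537 to 0.0991). For Hoxa5 the 2 depot differences were 0.79 apart (95% interval 0.17 to 1.41, adjusted p = 0.217), and 1.12 apart without replicate 2 of AT from VAT (adjusted p = 0.00452). For Hoxa9 they were 0.77 apart (adjusted p = 0.213), and 1.02 apart without replicate 3 of AT from SAT (adjusted p = 0.0315).

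Other cell content moved with depot. For scale, 5.64% of all genes were called between depots in AP and 4.55% in AT. Of 14 markers of mesothelium, the lining of visceral organs, 13 were called higher in VAT in AP and 13 in AT. The log2 of their summed intensity was 9.65 to 9.86 in AP from SAT and 12.59 to 13.02 in AP from VAT, and 9.25 to 9.45 and 12.03 to 12.34 in AT from SAT and VAT. Muc16 was the 1 marker under background in the SAT groups. In AP from VAT 3 of 9 progenitor markers were lower than in AP from SAT, with log2 summed intensities of 13.03 to 13.26 against 13.62 to 13.76, and 2 of 6 Schwann cell markers were lower. Also in AP, 3 of 10 markers of pericytes and smooth muscle were higher in VAT, and of 10 endothelial markers 2 were higher and 1 lower. In AT 3 of 6 Schwann cell markers were lower in VAT, and of 10 markers of pericytes and smooth muscle 3 were higher and 2 lower. Of 9 skeletal muscle markers 1 was called higher in VAT in AP and 2 in AT. Of 9 adipocyte markers 1 was higher in VAT in AP, while in AT 1 was higher and 1 lower. Also in AT, 1 of 9 progenitor markers was lower in VAT and 1 of 11 leukocyte markers was higher. By limma 0 leukocyte markers were called in AP and 0 endothelial markers in AT. Of 10 markers of mammary or genital epithelium, 6 were under background in every group and 1, Krt7, was higher in VAT. The part of these cell types in the depot differences of the HOX genes was not tested, and in such mixed samples fewer cells of a type and less RNA per cell cannot be told apart.

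The remaining comparison asks how the HOX transcripts of the progenitor preparation differ from those of the tissue around it. In SAT, 5 of 36 members (13.9%) were called between AP and AT, where 32.4% of all genes were called. Hoxb3, Hoxc4, Hoxc9 and Hoxd8 were higher in AP, beside 16.1% of all genes, and Hoxc8 was lower, beside 16.3%. In VAT, 8 of 36 (22.2%) were called, where 32.6% of all genes were called. Hoxa2, Hoxa3, Hoxa5, Hoxa6, Hoxb2, Hoxc4 and Hoxc9 were higher in AP, beside 15.8% of all genes, and Hoxc8 was again lower, beside 16.8%. Groups did not overlap for 11 members in SAT and 9 in VAT, beside 44.6% and 40.9% of all genes. The median differences were 0.09 and 0.18, against 0.03 over all genes in each depot. These 2 comparisons share no arrays, and Hoxc4, Hoxc8 and Hoxc9 were called in both with the same sign, 60% of the SAT calls and 37.5% of the VAT calls.

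Hoxc8 stood out by its direction and size. From the array values above, AP lay below AT by 1.31 in SAT (SE 0.112, 2.49-fold, adjusted p = 2.12e-07) and by 1.71 in VAT (SE 0.112, 3.28-fold, adjusted p = 1.24e-08). The difference kept its sign under every scaling and every array left out, between -1.39 and -0.80 in SAT and between -1.76 and -1.18 in VAT. Its neighbour Hoxc9 was higher in AP, by 0.59 in SAT (SE 0.128, adjusted p = 0.00193) and by 0.46 in VAT (adjusted p = 0.0113), where the call was lost without replicate 1 of AP from VAT (0.32, adjusted p = 0.0703). Hoxc4 was higher in AP by 0.39 in SAT (adjusted p = 0.015) and by 0.35 in VAT (adjusted p = 0.0295). Without replicate 3 of AT from SAT the former had an adjusted p of 0.055. Without replicate 1 or 3 of AP from VAT or replicate 1 of AT from VAT the latter had 0.0648 to 0.151, and with only the 2 groups in the fit it had 0.0779. Hoxc10 was not called between preparations, with fitted differences of 0.05 in SAT and -0.08 in VAT and 95% intervals from -0.47 to 0.57 and from -0.59 to 0.44.

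In cluster A no member was called in SAT by limma, with 2 of 9 at an unadjusted p under 0.05, Hoxa4 (-0.39, adjusted p = 0.0628) and Hoxa9 (-0.53, adjusted p = 0.052). Hoxa9 was called with cyclic loess (0.033), with dim genes left out (0.0399) and when AT from SAT lacked replicate 3 (-0.78, adjusted p = 0.00296) or AT from VAT lacked replicate 1 or 2 (0.035 and 0.0445). Hoxa4 was called with cyclic loess (0.0486) and when replicate 2 was left out of AP from SAT (0.0261) or out of AT from VAT (0.0429). In VAT 4 members were called. Hoxa2, with the array values above, was 0.50 higher in AP (adjusted p = 0.00259), Hoxa3 0.67 higher (adjusted p = 0.00017) and Hoxa6 0.62 higher (adjusted p = 0.000311), with no overlap between groups except in Hoxa5. The AT means from VAT behind the first 2 of these differences, 4.14 for Hoxa2 and 4.06 for Hoxa3, are at the background level, so those differences are only fitted values. Hoxa5 was 0.75 higher in AP (SE 0.204, adjusted p = 0.0102), but 1 AT array, replicate 2 at 6.48, lay above the lowest AP array, at 6.36. Its call was lost without replicate 1 or 3 of AT from VAT (adjusted p = 0.0593 and 0.0502).

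Hoxb2 and Hoxb3, both genes of the hindbrain in the embryo, were the called members of cluster B. Hoxb2 read 5.54, 5.73 and 5.50 in AP from VAT and 5.27, 5.22 and 5.05 in AT from VAT. The groups did not overlap, and AP was 0.41 higher (SE 0.118, adjusted p = 0.0137), though not without replicate 2 of AP (0.0654) or replicate 3 of AT (0.0547). Hoxb3 read 5.21, 4.75 and 4.95 in AP from SAT and 4.34, 4.69 and 4.45 in AT from SAT, a difference of 0.48 (SE 0.144, adjusted p = 0.0176). The highest AT array was just under the lowest AP array, and the call was lost without replicate 1 of AP (0.099) or replicate 1 of AT (0.0827). In cluster D, Hoxd8 read 6.43, 6.17 and 6.07 in AP from SAT and 5.46, 5.81 and 6.08 in AT from SAT. These values overlap, the difference was 0.44 (SE 0.148, adjusted p = 0.0316), and it fell to 0.28 without replicate 1 of AT (adjusted p = 0.182). The call was also lost without replicate 1 or 2 of AP or replicate 2 of AT (adjusted p = 0.147, 0.0576 and 0.0592) and with only the 2 groups in the fit (0.0646).

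**Figure D3:**
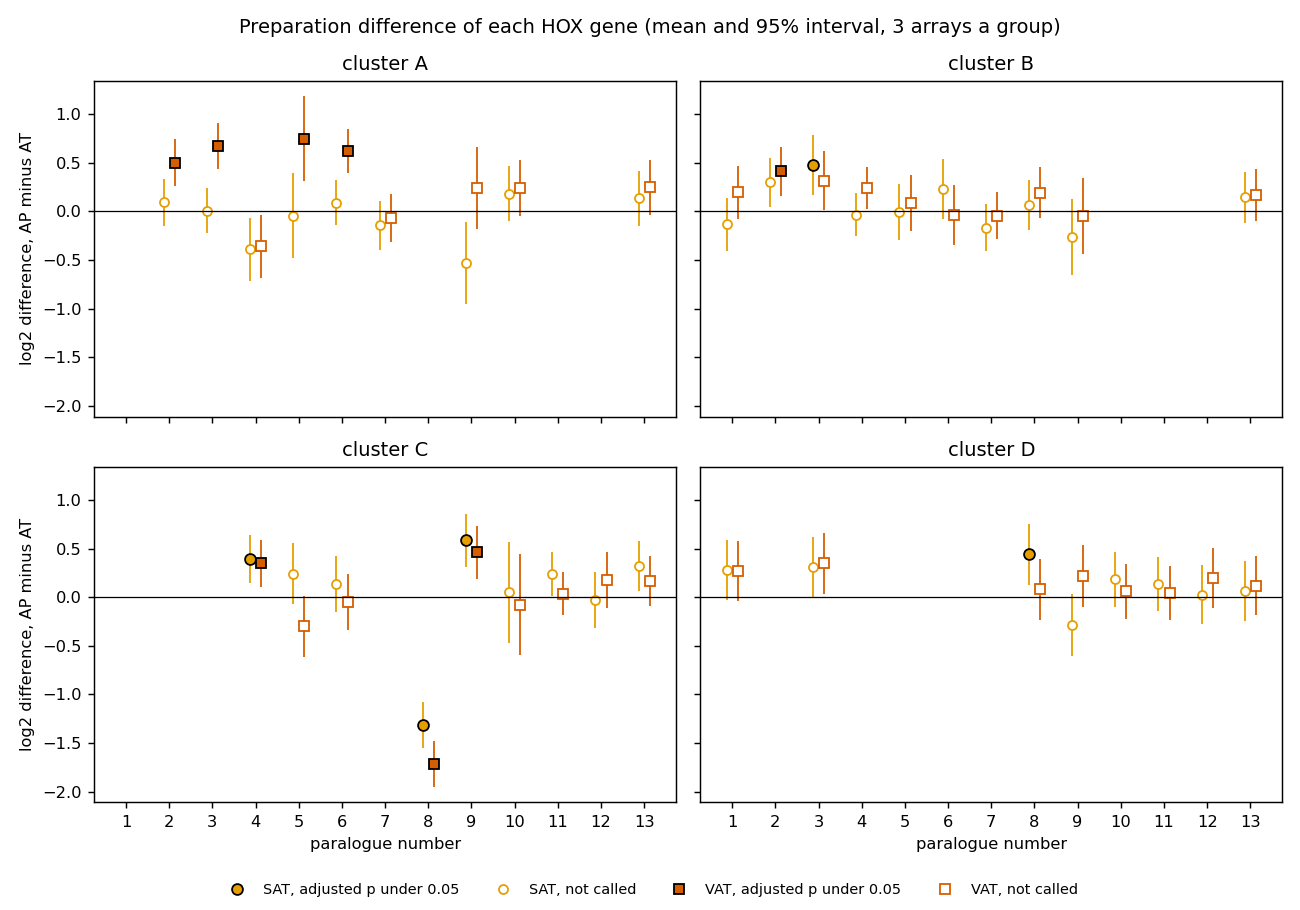
Difference in log2 RMA intensity, AP minus AT (vertical axis), of each HOX gene by paralogue number (horizontal axis), in 1 panel per cluster, with the 95% interval from the limma fit, 3 arrays a group; circles are SAT, squares VAT, and filled symbols have an adjusted p under 0.05. Hoxc8 lies at -1.31 and -1.71, and the other filled symbols lie above 0, the highest at 0.75 for Hoxa5 in VAT.

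The direction of the smaller AP minus AT differences depends on scale. With the arrays aligned on the median of 10 housekeeping genes, the median of all genes moved by 0.51 in SAT and 0.54 in VAT. In SAT 31 members were then higher and 1 lower in AP, where 16199 of all 22180 genes were called higher. In VAT 32 members were higher and 1 lower, where 16398 of all genes were called higher. The 1 lower member in each was Hoxc8. The 10 housekeeping genes were not constant themselves. Without this shift 6 of them were called in each depot, 2 higher and 4 lower in AP. Their differences ran from -1.76 to 0.81 in SAT and from -1.56 to 0.40 in VAT. With cyclic loess 4 members were higher and 3 lower in AP in SAT, where 7340 of all genes were called. Under the same housekeeping shift the median of all genes moved by 0.13 for the depot difference in AP and by 0.11 in AT. The HOX calls between depots were then 8 higher and 2 lower in AP, where 1090 of all genes were called. In AT they were 3 higher and 2 lower, where 876 of all genes were called.

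Cell content also moved with the preparation. For scale, 32.4% of all genes were called between AP and AT in SAT and 32.6% in VAT. All 9 adipocyte markers measured were lower in AP, with log2 summed intensities of 9.36 to 9.80 on the AP arrays and 14.37 to 14.61 on the AT arrays. Of 9 progenitor markers, 8 were higher in AP in SAT and 7 in VAT, with AP from SAT at 13.62 to 13.76 and AT from SAT at 11.41 to 12.36. Of 10 endothelial markers 8 were lower in each depot and 1 higher, and of 11 leukocyte markers 8 were lower in SAT and 9 in VAT. Markers of pericytes and smooth muscle, which the beads did not target, were higher in AP for 7 of 10 in SAT and 9 of 10 in VAT. In each depot 1 of the 10 was lower. The part of these cell types in the AP minus AT differences of the HOX genes was not tested.

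TALE cofactors, the DNA-binding partners of HOX proteins, were measured for 8 genes. Between depots 2 of 8 were called in AP and 2 in AT, all higher in VAT, where 5.64% and 4.55% of all genes were called. Meis1, which binds DNA with PBX and HOX partners, read 7.06, 7.20 and 7.10 in AP from SAT and 8.29, 8.30 and 8.51 in AP from VAT. On the AT arrays it read 6.06, 6.14 and 6.35 in SAT and 7.38, 7.65 and 7.45 in VAT. The groups stood apart in both preparations, by 1.25 in AP (SE 0.114, adjusted p = 4.22e-06) and by 1.31 in AT (SE 0.114, adjusted p = 4.55e-06). The related gene Meis2 was higher in VAT by 0.49 in AP (adjusted p = 0.00436) and by 0.38 in AT (adjusted p = 0.0345), the latter lost in 10 of its alternatives, with adjusted p up to 0.131.

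Between preparations 4 of the 8 cofactors were called in each depot, all higher in AP, beside 32.4% and 32.6% of all genes. Pknox2, a further partner of PBX proteins, read 6.77, 7.05 and 7.05 in AP from SAT and 5.05, 5.46 and 5.41 in AT from SAT. In VAT it read 6.73, 6.68 and 6.98 in AP and 5.18, 5.09 and 4.89 in AT. The AP arrays were all more than 1 log2 unit above the AT arrays, with differences of 1.65 in SAT (adjusted p = 1.42e-07) and 1.74 in VAT (adjusted p = 8.4e-08). Meis1 was higher in AP by 0.94 and 0.87, Meis2 by 0.56 and 0.68, and Meis3 by 0.79 and 0.84, in SAT and VAT. Pbx2, Pbx3, Pbx4 and Pknox1 were called in no comparison of 2 groups in this fit. Under the housekeeping shift all 8 cofactors were called higher in AP in both depots. So were 16199 of all 22180 genes in SAT and 16398 in VAT.

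**Figure D4:**
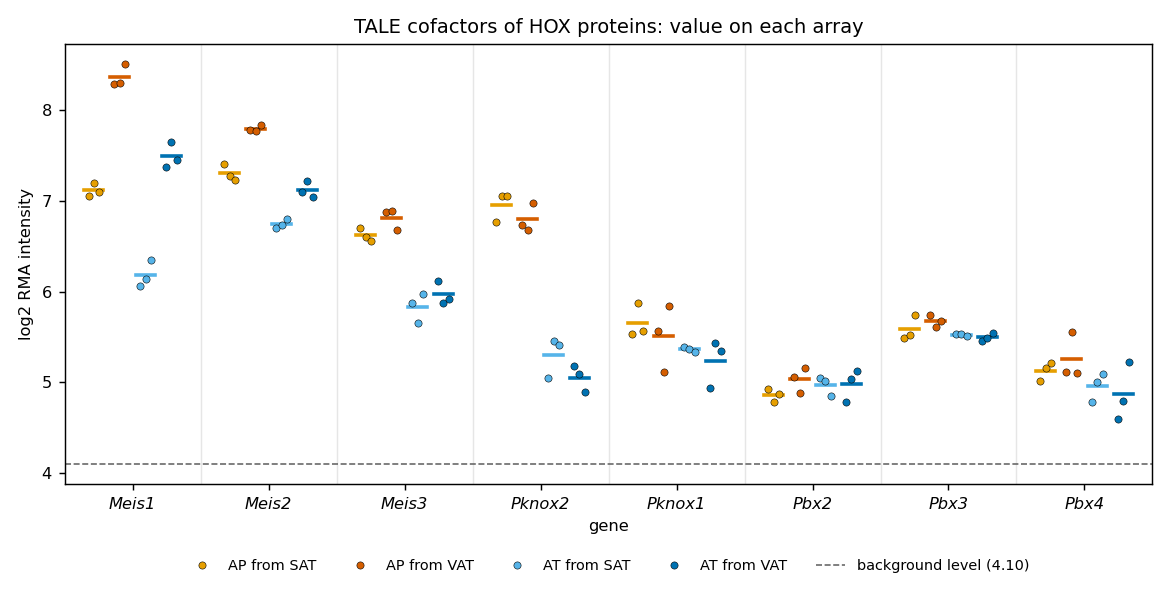
Log2 RMA intensity (vertical axis) of the 8 TALE cofactor genes measured, with a point for each array, a bar for the mean of the 3 arrays of a group and a dashed line at the background level of 4.10. Meis1 is higher in VAT than in SAT and higher in AP than in AT, Pknox2 is higher in AP by 1.65 in SAT and 1.74 in VAT, and the Pbx genes and Pknox1 have no called difference.

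Polycomb complexes hold unused HOX genes silent. Of 16 Polycomb genes measured from a list of 17, 1 (6.25%) was called between depots in AP, near the 5.64% of all genes. It was Eed, a core subunit of the complex that methylates histone H3, at -0.51, lost in 5 alternatives. In AT 0 were called by limma, beside 4.55% of all genes, and 2 had an unadjusted p under 0.05. Between AP and AT, 7 of 16 (43.8%) were called in SAT, 4 higher and 3 lower, beside 32.4% of all genes, and 10 of 16 (62.5%) in VAT, 5 higher and 5 lower, beside 32.6%. Phc1, a Polyhomeotic subunit, was higher in AP by 0.85 in SAT and 0.52 in VAT, and Pcgf2, a subunit of the ubiquitin ligase complex, by 0.65 and 0.85. Suz12, a partner of Eed, was lower in AP by 0.86 in SAT and by 0.92 in VAT. Under the housekeeping shift 12 Polycomb genes were higher in AP in SAT and 0 lower, beside 16199 of all 22180 genes higher. In VAT 10 were higher and 1 lower, beside 16398 of all genes higher. The 1 lower was Suz12, and the other falls were then not called.

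Of 14 activating regulators measured from a list of 15, 1 (7.14%) was called between depots in AP, near the 5.64% of all genes. It was the retinoic acid receptor gene Rarg at -0.72, lost in 7 alternatives. In AT 0 were called by limma, beside 4.55% of all genes, and 3 had an unadjusted p under 0.05. In SAT 6 of 14 (42.9%) were called, all higher in AP, beside 32.4% of all genes. They included Kdm6b, which removes the Polycomb mark, at 1.04, Rarg at 0.98 and Men1, a subunit of trithorax-type complexes, at 0.83. In VAT 5 of 14 (35.7%) were called, near the 32.6% of all genes: 4 were higher, including Rarb at 0.87, Kdm6b at 0.78 and Rara at 0.62, and 1 was lower, Rxra, the partner of the retinoic acid receptors, at -0.64. Under the housekeeping shift 13 were higher in each depot and 0 lower, and the fall of Rxra was not called. Of all 22180 genes, 16199 were then higher in AP in SAT and 16398 in VAT.

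Of 24 further genes listed that lie within or beside the clusters, 12 were measured. In AP 0 were called between depots by limma, beside 5.64% of all genes, with 2 at an unadjusted p under 0.05. In AT 1 (8.33%) was called, beside 4.55% of all genes. It was Snx10 (-0.76), a sorting nexin gene outside cluster A. Hoxaas3, a non-coding transcript antisense to the Hoxa5 and Hoxa6 region, had means of 5.29 ± 0.09 in AP from SAT and 5.42 ± 0.16 in AP from VAT, a fitted difference of 0.12 (adjusted p = 0.78). Hotair, the non-coding RNA of cluster C, had means between 3.97 and 4.15, at the background level, in the 4 groups. Between preparations 5 of the 12 were called in each depot (41.7%, beside 32.4% and 32.6% of all genes), 1 higher and 4 lower in AP. The higher ones were Evx1, a homeobox gene beside cluster A, in SAT (0.41, adjusted p = 0.015, lost in 2 alternatives) and Hoxaas3 in VAT (0.37, adjusted p = 0.0438, lost in 14 alternatives). Of the lower ones, Mtx2, Skap2 and Snx10, flanking genes that are not HOX genes, were lower in AP in both depots, by 0.90 to 1.65.

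Mir196a-2, a gene that encodes the 196a-5p sequence printed above, was listed at 3.69, 3.74 and 3.75 in AP from SAT. In AT from SAT it was at 4.24, 4.36 and 4.07. In VAT it was at 3.44, 3.53 and 3.43 in AP and 3.91, 3.91 and 3.91 in AT. It was called lower in AP by 0.50 in SAT and 0.44 in VAT. However, all arrays of AP and of AT from VAT were under background, as was replicate 3 of AT from SAT. Under the housekeeping shift the differences were 0.02 and 0.09, so its direction is not settled. Mir196a-1, Mir10b and Mir615 were called in no comparison, and Mir10b, at 2.30 to 2.94, was under background on every array. These probe sets read the host transcript or hairpin and not the mature RNA.

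Other transcription factors that mark the position of fat depots were measured for 20 of 22 listed. Between depots 4 were higher and 9 lower in VAT in AP, beside 5.64% of all genes, and 5 higher and 3 lower in AT, beside 4.55%. Their interaction was called for 7 of 20, beside 2.15% of all genes. The list was drawn up with earlier results of these data known, and its counts are given only for scale.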

How the data were processed

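RNA was measured on 12 Affymetrix arrays, 3 for each of 4 groups that were taken from the sample titles. Each deposited value is the log2 intensity of a probe set. The authors obtained it by RMA (robust multi-array average) using Affymetrix Expression Console 1.3.0.187, per the submitters' processing notes. That the log has this base follows from RMA and from values that run from 1.69 to 13.48. The annotation library and the level of summary are not given in the sources used here. RMA brings all arrays to one distribution at the probe level, so a change common to most genes would not be seen.

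Of 41345 probe sets, 23521 were annotated to 1 gene, 1814 to several and 16010 to none. Only the first kind was used, which leaves out 7 probe sets shared by a HOX gene and others. Per gene the probe set with the highest mean was kept, giving 22180 genes. The fit used limma 3.58.1 under R 4.3.3 (1 mean per group, all 12 arrays, 8 residual and 6.84 prior degrees of freedom), 2-sided, with Benjamini-Hochberg adjustment within a contrast and a threshold of 0.05. The code was tested on simulated data.

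The members and the lists of cofactors, regulators, neighbours and cell type markers were chosen with earlier results of these data known, so their counts are descriptions. Every member called in a comparison is given in full. Of the lists not every called gene is named, and an unnamed gene can differ more than a named one. The alternatives tried were a replicate block, trend and robust empirical Bayes, quantile, cyclic loess and housekeeping scaling, a filter keeping the 16398 genes above 4.09 on at least 3 arrays, the mean over probe sets, a fit of the 2 groups alone, and leaving out each array. Promoter and small RNA sequences were matched by symbol to RefSeq tables of GRCm38.p6. Replicate numbers were checked for pairing through the correlation of same-numbered deviations from group means and were not treated as pairs. Figures were drawn with matplotlib 3.10.9 in Python 3.11.15.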

Additional observations from a re-analysis of the deposited data

Results flagged for a closer look

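The depot difference of Hoxa3, the gene needed for thymus and parathyroid development, differed between the preparations by a test of the difference itself. VAT exceeded SAT by 0.59 in AP and lay below it by 0.08 in AT (a fitted difference of -0.08), so the 2 depot differences were 0.67 apart on the log2 scale (SE 0.155, limma adjusted p = 0.0368, 3 arrays a group). The call was lost in 13 alternatives, with adjusted p up to 0.201: under all 3 rescalings of the arrays and without any 1 of 10 of the 12 arrays. All 3 arrays of AP from VAT, at 4.59, 4.89 and 4.72, lay above the 9 others, which read 3.93 to 4.25 around the background level of 4.10.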

How the results depend on the processing

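Over 29 called results of single HOX genes, 579 values under alternatives kept the call in 538 cases, lost it in 41 and changed sign in 0, and 17 of the 29 kept their call throughout. The counts of called members moved as follows. With housekeeping scaling 32 members were called between AP and AT in SAT and 33 in VAT, beside 17602 and 17692 of all 22180 genes. The interaction called 0 members under quantile normalization, cyclic loess and housekeeping scaling. Leaving out 1 array gave 8 to 9 members between depots in AP, 6 to 8 in AT, 3 to 7 between preparations in SAT (the lowest when AT from SAT lacked replicate 1), 6 to 9 in VAT and 0 to 2 for the interaction. With the replicate number as a block the counts were 8 and 6 between depots in AP and AT, 7 and 8 between preparations in SAT and VAT, and 1 for the interaction; Hoxa7 was the call lost between depots in AP (adjusted p = 0.0748), and Hoxa9 (adjusted p = 0.0296) and Hoxb2 (adjusted p = 0.0472) were the calls gained between preparations in SAT. Deviations of same-numbered arrays were at most weakly correlated. Between depots r was 0.0205 to 0.118 in AP and -0.135 to 0.0974 in AT. Between preparations it was -0.0664 to 0.0659 in SAT and -0.28 to -0.0292 in VAT. The same-number r was above those with other numbers for 2 replicates between depots in AP and 1 in AT. Between preparations this was so for 1 in SAT and 0 in VAT. The numbers were not used as pairs, and whether same-numbered arrays share animals was not tested. The cause of these shifts was not tested. With 3 arrays a group, members near the background level, such as Hoxa2, Hoxa3, Hoxd9 and Hoxd11, have the least signal to show a difference, and the mixed cell content of both preparations limits what a level can be assigned to.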
